A study of Homo sapiens with 4 samples.

Results

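The genes described here encode potassium, calcium, sodium, chloride and TRP family ion channels, their accessory subunits, the CLIC proteins and the PIEZO channels. They were chosen by symbol alone (KCN, CACNA, CACNB, CACNG, SCN, CLCN, CLIC, ANO, TRPC, TRPM, TRPV and PIEZO names followed by their member number), and 106 of the 15575 genes in the count table carried such a symbol. RNA was profiled in U251, an established human GBM cell line, with 2 Ctrl libraries (labelled pGreen Ctrl) and 2 PRMT3 knockdown libraries (PRMT3-KD), so that the comparison asks what the loss of PRMT3, an arginine methyltransferase, does to channel transcripts. Cells of both groups received a lentivirus, carrying a control or a PRMT3 shRNA, and were described by the study as profiled 72 h later. The hairpin used for these libraries is not given in the sources used here, nor is it stated that the 2 libraries of a group came from separate cultures, so the p-values measure the spread between these libraries, which may be technical.

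Ion channels are membrane proteins that let selected ions pass down their gradient and so set the membrane potential, the volume and the calcium entry of a cell. Potassium channels hold the resting potential and repolarize the membrane, and voltage-gated calcium and sodium channels open on depolarization. TRP and PIEZO channels pass cations in response to lipids, temperature or stretch. Chloride channels and anoctamins move anions or scramble membrane lipids, and in glioma cells potassium and chloride channels are known for their part in the shape and volume changes of migrating cells. Accessory subunits do not form the pore but change the trafficking and gating of the subunits that do.

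Total counts per library ran from 24804250 to 29756313, and the channel genes took between 0.295% and 0.328% of them. PRMT3 itself was counted 535 times in each Ctrl library, against 77 and 45 times in PRMT3-KD. Counts of the 2 Ctrl libraries differed by little more than counting error (chi-square divided by its degrees of freedom 1.42 across 13709 genes, a value that counting error alone would bring near 1), whereas those of the 2 PRMT3-KD libraries differed much more (63.6 over 13670 genes). Over the tested channel genes alone, with counts scaled to the totals of these genes, the values were 1.19 and 48.6. Both PRMT3-KD libraries are therefore given apart for the main results. Of 10 glial and mesenchymal glioma markers, 8 (VIM, NES, CD44, GFAP, SOX2, SOX9, S100A6 and FABP7) had over 10 counts in every library, AQP4 had at most 1 count and OLIG2 had no row in the table. Their summed level was 9499 and 9446 CPM in Ctrl and 8386 and 8770 CPM in PRMT3-KD, SOX9 fell by a log2 value of 0.65 (adjusted p = 0.0215, edgeR), and GFAP and FABP7 were at -2.03 and -0.82 on that scale without passing. Sums for the 4 smooth muscle markers (mostly ACTA2 and CNN1, with MYH11 at 9 counts or fewer) were 26.9 and 28.9 CPM in Ctrl and 72.03 and 206 CPM in PRMT3-KD. CNN1 rose by a log2 value of 2.82 (adjusted p = 0.0290, edgeR). ACTA2 was at 2.22 without passing (adjusted p = 0.0624, edgeR), with 53.7 and 164 CPM in PRMT3-KD libraries 1 and 2. Epithelial markers (KRT18 and KRT8 in the main, with CDH1 at 4 counts or fewer) went from 37.8 and 39.9 to 85.1 and 111 CPM. KRT18 and KRT8 rose by log2 values of 1.37 and 1.10 (adjusted p = 0.0192 and 0.0248, edgeR). Neuronal markers went from 344 and 354 to 223 and 254 CPM, mostly TUBB3, which fell by 0.62 (adjusted p = 0.0308, edgeR). SYT1, SLC17A7, SYP and SNAP25 stood above 0 and GAD1 at -0.12 on the log2 scale, none of them passing. Immune markers (mostly CD68, with PTPRC at 7 counts or fewer) summed to between 29.9 and 33.7 CPM. CSF1R was at -0.85, CD14 at -0.89 and CD68 at 0.26 on the log2 scale, none of them passing. Endothelial ones were at 27.5 and 29.6 CPM in Ctrl and 19.6 and 37.9 CPM in PRMT3-KD, where KDR fell by 0.86 (adjusted p = 0.0428, edgeR) and CDH5 was at 25.4 CPM in library 2 against 5.05 to 5.31 CPM in the other libraries. The part of these shifts in the channel results was not tested. CPM is the usual depth-scaled count, here on the TMM scale of edgeR, which also adjusts library totals for composition. In a bulk culture, a lower level in every cell and a smaller share of cells with the transcript cannot be told apart.

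On a scale per length (CPM divided by the kilobases of annotated exons), a few channel genes held most of the signal in Ctrl cells. CLIC1 and CLIC4, small proteins that occur in soluble and membrane forms, were at 217 and 200 CPM per kb of exons. PIEZO1, the stretch-activated cation channel, followed at 38.0, then CACNG4 at 18.8, ANO6 at 16.9 and CLCN3 at 14.3. These 6 genes made up 84.1% of the summed level per length of all 106. KCNMA1, which forms the large-conductance calcium- and voltage-activated potassium channel known from glioma cells, was the 13th in order at 5.18. The length used joins the exons of all annotated transcripts, and was 39437 bases for KCNMA1 against 3583 for CACNG4. The order and the share of 84.1% thus depend on the annotation too. By CPM not divided by length, KCNMA1 stood above CACNG4 in every library. Only 23 of the 106 genes reached 1 CPM per kb in Ctrl and 26 did so in PRMT3-KD. Ctrl libraries 1 and 2 gave 217.6 and 215.7 CPM per kb for CLIC1 and 202 and 198 for CLIC4, so in Ctrl the first place was held by more than the difference between libraries. In PRMT3-KD the order of these genes turned over in library 2 only, where CLIC4 was higher.

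**Figure D1:**
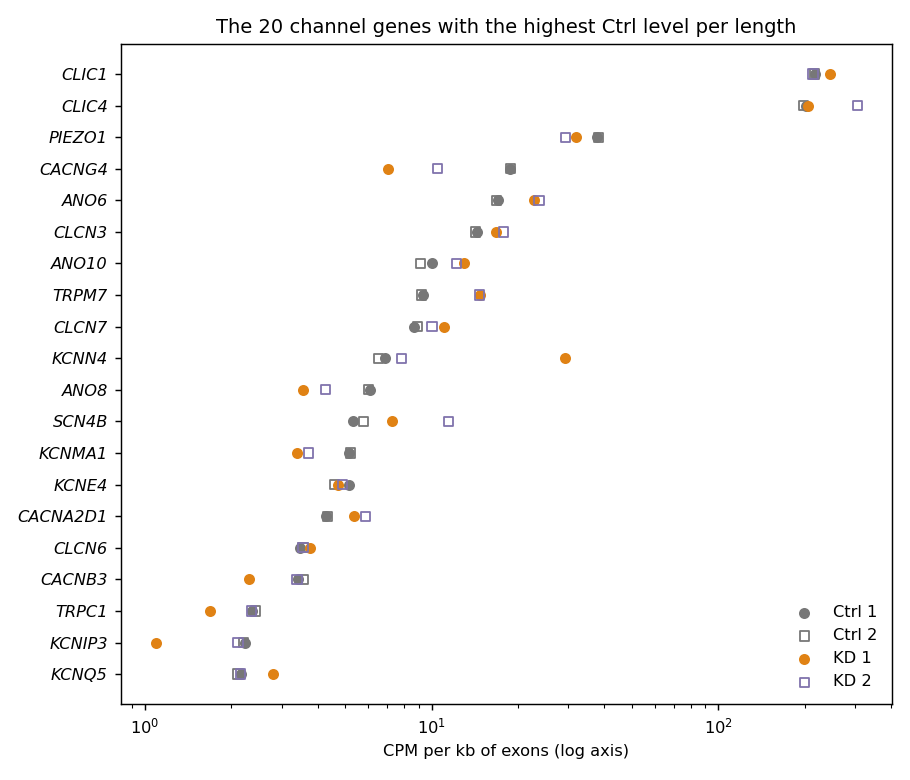
Level per length (CPM per kb of exons, log axis) of the 20 channel genes with the highest mean level in Ctrl, with 1 point per library (circles for library 1, open squares for library 2 of each group). Ctrl points lie nearly on each other, CACNG4 and ANO8 lie lower and ANO6 and TRPM7 lie higher in both PRMT3-KD libraries, and KCNN4 is apart in PRMT3-KD library 1 alone.

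Of the 106 genes, 78 had enough counts to be tested between PRMT3-KD and Ctrl with edgeR's quasi-likelihood test, with p-values adjusted by Benjamini-Hochberg over the 13172 genes tested. At an adjusted p under 0.05, 5 channel genes rose (KCND3, KCNK1, TRPC4, TRPM7 and ANO6) and 5 fell (among them CACNG4, KCNMA1, ANO8 and KCNIP2). This was 6.41% of the tested channel genes in each direction, against 8.39% of all tested genes that were higher and 8.91% that were lower. Of the 10 called genes, 8 changed by over 1.5-fold, with ANO6 and KCNMA1 below it. All 10 calls rest on having both Ctrl libraries, since without Ctrl library 1 or without Ctrl library 2 edgeR called 0 genes of the whole table, with 4 channel genes higher and 4 lower at an unadjusted p under 0.05 in either case. The median log2 fold change of the 78 genes was 0.072, beside 0.005 over all genes tested, with 42 above and 36 below 0. Both PRMT3-KD values lay outside the 2 Ctrl values on one side for 47 of the 78 (60.3%), against 67.1% of all genes. An unadjusted p under 0.05 was found for 22 of the 78, beside 4949 of the 13172 genes.

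Low counts limited the test for many of these genes. The median standard error of the log2 fold change was 0.287 for the channel genes and 0.135 for all genes. In the 27 channel genes that averaged 5 CPM or more the median standard error was 0.123, and 3 rose and 3 fell (11.1% each, against 9.66% higher and 10.6% lower of all genes at this level). Both PRMT3-KD values lay outside Ctrl on one side for 23 of the 27 (85.2%), against 70.6% of all genes at this level. An unadjusted p under 0.05 was found for 15 of them, beside 4421 of 10556 genes (edgeR). The other 28 of the 106 genes were not tested, with at most 14 counts in any library, and 10 of them had 0 counts in some library. They include CACNA1C, KCNH3, KCNF1, SCN2A and TRPV3, whose counts were too low for the main test. None of these named genes passed when 1 count in any library was enough to be tested. KCNH3 was then at -2.38 on the log2 scale (adjusted p = 0.0981, edgeR). With 2 libraries per group the smallest p of an exact permutation test is 0.333, so each p-value here is that of the model fitted to the whole table.

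**Figure D2:**
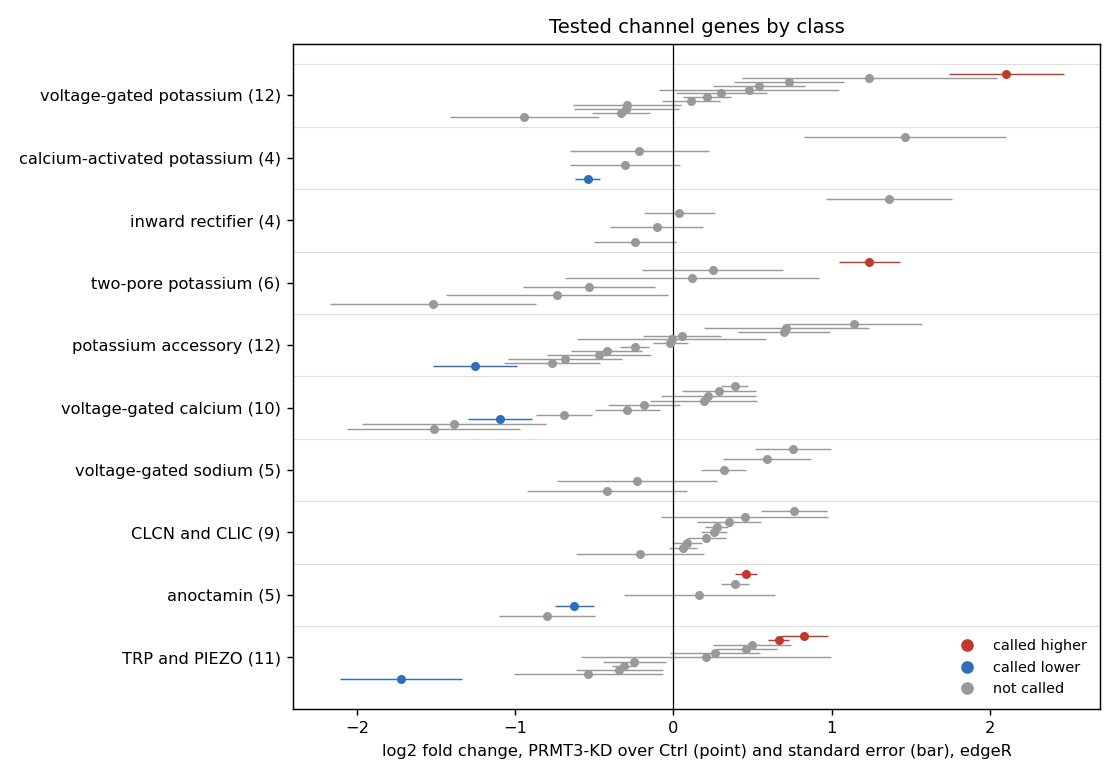
Log2 fold change (PRMT3-KD over Ctrl, edgeR) of the 78 tested channel genes, 1 point per gene with its standard error as a bar, grouped by channel class with the number tested in brackets. Called genes lie on both sides of 0 and come from 7 of the 10 classes.

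Among the pore-forming subunits of voltage-gated potassium channels, 12 of 19 genes were tested and KCND3 was the only one called. KCND3 (ENSG00000171385), on chr1:112313284-112532290 of GRCh37, encodes a subunit of the channels that carry the fast transient outward current. Its Ctrl counts were 20 and 12 and its PRMT3-KD counts 73 and 61, or 0.722 and 0.436 against 2.87 and 2.15 CPM, and the groups did not overlap. It rose by 2.10 on the log2 scale (standard error 0.363, adjusted p = 0.0319, edgeR), or 4.30-fold, the largest change among the called channel genes. Its exons overlap those of DDX20 on the other strand, which was at 28.8 and 30.4 CPM in Ctrl and 25.5 and 20.2 CPM in PRMT3-KD. The part of DDX20 reads in the KCND3 counts was not tested. Whether the counting used strand is not given in the sources used here.

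The voltage-gated potassium genes with most counts did not pass. KCNQ5, which contributes to the slow non-inactivating M-type current, was at 24.4 and 23.9 CPM in Ctrl and 31.6 and 24.4 CPM in PRMT3-KD (log2 fold change 0.21, adjusted p = 0.366, edgeR). KCNG1, a silent subunit that acts only in heteromers, was at 3.36 and 3.42 against 3.46 and 3.84 CPM (log2 fold change 0.11, adjusted p = 0.702, edgeR). KCND1, of the same subfamily as KCND3, was at 2.67 and 2.51 CPM in Ctrl, 1.73 CPM in PRMT3-KD library 1 and 5.46 CPM in library 2. Its PRMT3-KD libraries thus lay on opposite sides of Ctrl, and its log2 fold change of 0.48 had a standard error of 0.570.

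KCNMA1 was the most counted potassium channel gene (ENSG00000156113), on chr10:78629359-79398127, where KCNMA1-AS1 overlaps its exons on the other strand. It was at 203 and 205 CPM in Ctrl and 134 and 147 CPM in PRMT3-KD libraries 1 and 2, with no overlap. It fell by 0.54 on the log2 scale (standard error 0.0796, adjusted p = 0.0243, edgeR). Against the Ctrl mean the separate values were -0.61 for library 1 and -0.48 for library 2. Of the genes for its accessory beta subunits, KCNMB4 was at 6.75 and 7.23 CPM in Ctrl and 4.29 and 6.12 CPM in PRMT3-KD (log2 fold change -0.42, adjusted p = 0.245, edgeR). The values of KCNMB1 and KCNMB3 were -0.68 (adjusted p = 0.243) and 0.05 (adjusted p = 0.900).

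KCNN4, the intermediate-conductance calcium-activated potassium channel, differed widely between the PRMT3-KD libraries. Its Ctrl counts were 596 and 560, and it reached 2314 counts in PRMT3-KD library 1 but 695 in library 2, or 21.5, 20.4, 91.1 and 24.5 CPM. Library 1 was 3.72-fold above library 2, while the 2 Ctrl libraries were nearly equal. Both PRMT3-KD values exceeded both Ctrl values, but the log2 fold change of 1.46 had a standard error of 0.638 and did not pass (adjusted p = 0.177, edgeR). It was 0.23 without PRMT3-KD library 1 and 2.12 without library 2, and passed in both cases, where the spread is that of the Ctrl libraries. The small-conductance channel genes KCNN2 and KCNN3 were below 1.2 CPM in all libraries, with adjusted p of 0.754 and 0.567.

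KCNK1 (ENSG00000135750, chr1:233749852-233808260), of the leak channels that set the resting potential, rose from 2.02 and 1.82 CPM to 4.49 and 4.58 CPM, or from 56 and 50 counts to 114 and 130. The PRMT3-KD libraries were close to each other and well above Ctrl, a rise of 1.24 on the log2 scale (standard error 0.192, adjusted p = 0.0267, edgeR). No other of the 6 tested KCNK genes was called, and the second by counts, KCNK6, was at 0.758 and 1.45 CPM in Ctrl and 0.787 and 0.739 CPM in PRMT3-KD. Between the PRMT3-KD libraries, the Ctrl libraries or both, 5 of the 6 differed by over 1.5-fold.

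Inward rectifiers, which pass potassium more easily into the cell than out of it, were represented by 4 tested genes. None was called by edgeR or by DESeq2, and only KCNJ8 was at an unadjusted p under 0.05, beside 4949 of all 13172 genes (edgeR). KCNJ8, a pore subunit of ATP-sensitive potassium channels, was counted 12 times in each Ctrl library, then 36 and 24 times in PRMT3-KD (log2 fold change 1.36, standard error 0.399, adjusted p = 0.0832, edgeR). KCNJ2 was at 2.92 and 3.31 CPM in Ctrl against 3.58 and 2.82 CPM, and KCNJ14 at 3.28 and 3.71 against 4.01 and 2.50 CPM, so that in both genes the PRMT3-KD libraries lay on opposite sides of the Ctrl values.

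Of the 12 tested potassium accessory genes, KCNIP2 (ENSG00000120049) alone was called. It encodes a calcium-binding partner of the KCND pore subunits, on chr10:103585731-103603677 with KCNIP2-AS1 on the other strand, and fell while KCND3 rose. Its counts were 55 and 46 in Ctrl but 20 and 21 in PRMT3-KD, or 1.99 and 1.67 against 0.787 and 0.739 CPM (log2 fold change -1.26, standard error 0.265, adjusted p = 0.0447, edgeR). This call is weak, since the adjusted p was 0.0975 with DESeq2 and 0.172 with limma-voom with group weights, though the direction held. The related KCNIP3 was at 17.8 and 17.6 CPM in Ctrl, 8.66 CPM in PRMT3-KD library 1 and 16.8 CPM in library 2 (adjusted p = 0.358, edgeR). KCNIP1 was at 1.37 and 1.38 CPM in Ctrl but 1.22 and 3.27 CPM in PRMT3-KD, on opposite sides of Ctrl (adjusted p = 0.380, edgeR). KCNIP4 was at 1.62 and 1.82 against 2.24 and 3.34 CPM (adjusted p = 0.161, edgeR). The most counted accessory genes, KCNAB2 and KCNE4, were at 34.4 and 36.0 against 28.6 and 30.7 CPM and at 19.3 and 17.2 against 17.6 and 18.3 CPM, with adjusted p of 0.128 and 0.909.

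**Figure D3:**
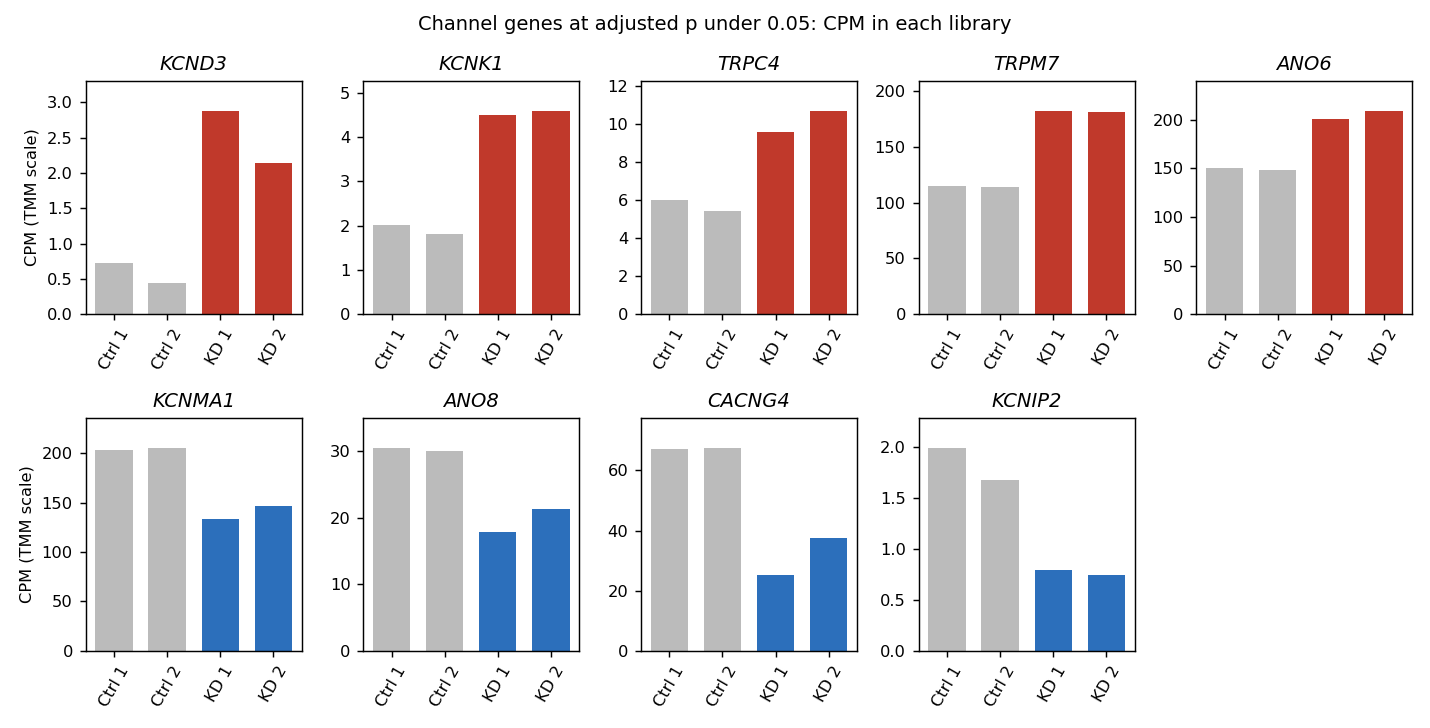
CPM on the TMM scale in each of the 4 libraries for 9 of the 10 channel genes at adjusted p under 0.05, with Ctrl libraries in grey, rises in red and falls in blue, and a scale of its own for each gene. In none of the 9 genes do the Ctrl and PRMT3-KD libraries overlap, and TRPM7 is at 182 CPM in both PRMT3-KD libraries against 115 and 114 CPM in Ctrl.

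In the calcium channel family, CACNG4 (ENSG00000075461) fell. It encodes a transmembrane protein of the gamma subunit family that also serves as an auxiliary subunit of AMPA receptors, on chr17:64960823-65029514. It was at 67.0 and 67.4 CPM in Ctrl and at 25.3 and 37.6 CPM in PRMT3-KD (log2 fold change -1.10, standard error 0.204, adjusted p = 0.0360, edgeR), or 2.14-fold lower. The decrease was larger in PRMT3-KD library 1 (-1.41) than in library 2 (-0.84), and the groups did not overlap. CACNA2D1, the alpha2delta subunit bound by gabapentin, was just outside the threshold at 39.2 and 39.7 CPM in Ctrl and 49.3 and 53.9 CPM in PRMT3-KD (log2 fold change 0.39, standard error 0.0871, adjusted p = 0.0505, edgeR). It passed under 3 of 7 alternatives of test, scaling, filter and block, among them limma-voom with group weights (adjusted p = 0.0414). With at least 10 counts required in every library its adjusted p was 0.0497 (edgeR). It did not pass under the other 4, among them DESeq2 (adjusted p = 0.0593). Among the pore genes, CACNA1A, CACNA1D, CACNA1G and CACNA1H were tested and none was called. CACNA1H, a low-voltage-activated channel that had 11 and 16 Ctrl counts and 6 and 3 PRMT3-KD counts, entered the test only through Ctrl, and DESeq2 gave it no adjusted p. CACNB1, a cytoplasmic beta subunit, was at 6.50 and 6.25 against 3.58 and 4.29 CPM (log2 fold change -0.69, adjusted p = 0.0637, edgeR).

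None of the 5 tested sodium channel genes was called, with SCN4B the only one at an unadjusted p under 0.05, beside 4949 of all 13172 genes. SCN4B, an adhesion-like beta subunit, was at 30.1 and 32.7 CPM in Ctrl and at 41.1 and 64.8 CPM in PRMT3-KD. Both PRMT3-KD values were above Ctrl, but library 2 was 1.58-fold above library 1 (log2 fold change 0.76, standard error 0.238, adjusted p = 0.0959, edgeR). It passed with DESeq2 (adjusted p = 0.0156) and limma-voom with group weights (adjusted p = 0.0249). SCN8A, the pore subunit with most counts, was at 9.93 and 10.6 against 13.9 and 11.7 CPM (log2 fold change 0.32, adjusted p = 0.187, edgeR).

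None of the 9 tested members of the chloride group was called, although CLIC4 had the most counts of all channel genes. At an unadjusted p under 0.05 there were 3 (CLCN3, CLCN5 and CLCN7, all higher), beside 4949 of all 13172 genes, and DESeq2 called CLCN5 alone. CLIC1 was at 423 and 419 CPM in Ctrl and 478 and 415 CPM in PRMT3-KD (log2 fold change 0.09, standard error 0.0941, adjusted p = 0.555, edgeR). CLIC4 was at 903 and 885 CPM in Ctrl, 917 CPM in PRMT3-KD library 1 and 1364 CPM in library 2, which therefore carries its log2 fold change of 0.35 (adjusted p = 0.279, edgeR). The endosomal and lysosomal exchangers CLCN3 and CLCN7 had small positive values of 0.27 and 0.26 with standard errors of 0.0726 and 0.0834 (adjusted p = 0.0685 and 0.102, edgeR). CLCN5, the endosomal exchanger mutated in Dent disease, was at 5.92 and 5.49 against 11.2 and 8.13 CPM (log2 fold change 0.76, adjusted p = 0.0731, edgeR).

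Anoctamins went in both directions. ANO6, the calcium-activated lipid scramblase and ion channel (ENSG00000177119, chr12:45609770-45876063), was at 150 and 148 CPM in Ctrl and 201 and 209 CPM in PRMT3-KD. It rose by 0.46 on the log2 scale (standard error 0.0685, adjusted p = 0.0251, edgeR), which is 1.37-fold. ANO8, which tethers the endoplasmic reticulum to the plasma membrane (ENSG00000074855, chr19:17434032-17445664), fell from 30.5 and 30.1 CPM to 17.8 and 21.3 CPM, by 0.63 on the log2 scale (standard error 0.122, adjusted p = 0.0389, edgeR). The exons of ANO8 overlap those of DDA1 on the other strand, which was at 73.0 and 74.3 against 86.6 and 83.4 CPM. ANO10 was just outside the threshold at 53.2 and 48.4 against 68.3 and 64.6 CPM (log2 fold change 0.39, adjusted p = 0.0515, edgeR), and inside it with DESeq2 (adjusted p = 0.0488) and upper-quartile factors (adjusted p = 0.0499). ANO1, the calcium-activated chloride channel proper, had only 23 to 48 counts, with an adjusted p of 0.832.

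Of the TRP channels, TRPM7 (ENSG00000092439) gave the most precise difference. It is a magnesium- and calcium-permeable channel fused to a kinase, on chr15:50844670-50978994. With 3186 and 3140 counts in Ctrl and 4622 and 5164 in PRMT3-KD, or 115 and 114 against 182 and 182 CPM, it rose by 0.67 on the log2 scale (standard error 0.0664, adjusted p = 0.0172, edgeR). TRPC4 (ENSG00000133107, chr13:38206200-38443939), a receptor-operated cation channel, rose from 5.99 and 5.42 CPM to 9.56 and 10.7 CPM (log2 fold change 0.83, standard error 0.148, adjusted p = 0.0340, edgeR). TRPC1 was at 11.4 and 11.7 CPM in Ctrl, 8.07 CPM in PRMT3-KD library 1 and 11.3 CPM in library 2 (adjusted p = 0.420, edgeR). PIEZO1 was at 426 and 432 CPM in Ctrl and 360 and 331 CPM in PRMT3-KD, or -0.31 on the log2 scale (standard error 0.0769), which did not pass with edgeR (adjusted p = 0.0595) and passed with limma-voom with group weights (adjusted p = 0.0281). PIEZO2 had 27 to 40 counts and an adjusted p of 0.553.

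**Figure D4:**
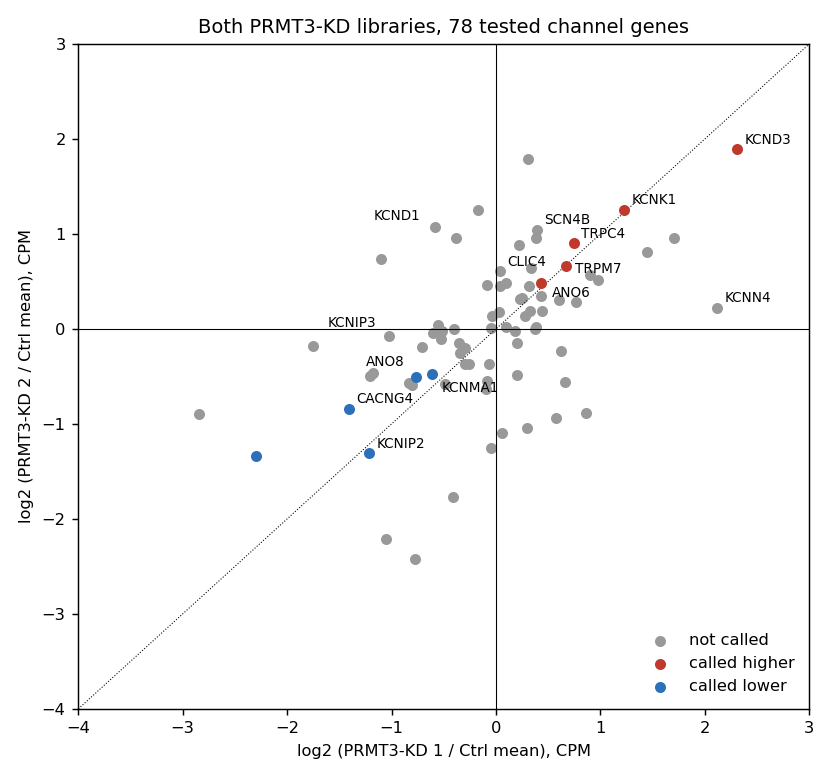
Log2 ratio of each PRMT3-KD library to the Ctrl mean for the 78 tested channel genes, library 1 on the horizontal and library 2 on the vertical axis, with called genes in colour, some genes named and equal values on the dotted line. All 10 called genes have the same sign in both libraries, while KCNN4 is higher in library 1 and KCND1 lies on opposite sides of Ctrl in the 2 libraries.

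Between the PRMT3-KD libraries, 28 of the 78 tested channel genes (35.9%) differed by over 1.5-fold, against 17.0% of all genes, and between the Ctrl libraries it was 11 (14.1%, against 3.36%). Much of this went with low counts. Where the average was 5 CPM or more it was 3 of 27 channel genes (11.1%) beside 10.4% of all genes between the PRMT3-KD libraries, and 0 beside 0.0947% between the Ctrl libraries. The 3 genes were KCNN4, higher in library 1, and KCNIP3 and SCN4B, higher in library 2, where KCNIP3 was 1.94-fold above library 1.

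Other channels, exchangers and pumps that work beside these genes were taken from a list of textbook members outside the symbol rule, of which 67 were in the table and 62 were tested. Of these, 11 were called higher and 1 lower (17.7% and 1.61%, against 8.39% and 8.91% of all genes), with a median log2 fold change of 0.254. Without the TMM factors, on library totals only, 6 were called, all higher, beside 740 higher and 985 lower of all 13172 genes. The split moved with the PRMT3-KD libraries, to 32 higher and 14 lower without library 1 and 30 higher and 20 lower without library 2, in fits that called 8841 of 13408 and 8809 of 13423 genes in all, while without either Ctrl library 0 were called (10 and 11 at an unadjusted p under 0.05, edgeR). LRRC8A, the obligatory subunit of the volume-regulated anion channel, was at 135 and 143 CPM in Ctrl and 313 and 257 CPM in PRMT3-KD (log2 fold change 1.03, standard error 0.120, adjusted p = 0.0193, edgeR). Its partner subunits had values below 0. LRRC8B fell by 0.56 (adjusted p = 0.0420, edgeR), a call that was lost on library totals only, while LRRC8C, LRRC8D and LRRC8E stood at -0.74, -0.31 and -0.62 on the log2 scale without passing (adjusted p = 0.0842, 0.0731 and 0.122, edgeR).

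The remaining called genes of that list fall into a few roles. HCN2, a hyperpolarization-activated cation channel, went from 22.2 and 23.5 to 43.1 and 41.8 CPM (log2 fold change 0.90, adjusted p = 0.0172, edgeR). SLC12A2, the sodium-potassium-chloride cotransporter that loads cells with chloride, rose by 0.61, and ATP1B1 and ATP1B3, beta subunits of the sodium pump, rose by 0.69 and 0.64. For intracellular stores, ITPR1 (an inositol trisphosphate receptor), TPCN1 (an endolysosomal channel) and TMEM38A (a cation channel of the endoplasmic reticulum) rose by 0.62, 0.73 and 0.70. Their relatives ITPR2, ITPR3, TPCN2 and TMEM38B were not called. ITPR3 was at 182 and 185 CPM in Ctrl and 158 and 136 CPM in PRMT3-KD (log2 fold change -0.32, adjusted p = 0.0889, edgeR). ITPR2 was at 31.6 and 33.2 CPM in Ctrl, 28.9 CPM in PRMT3-KD library 1 and 52.9 CPM in library 2. TPCN2 and TMEM38B stood at -0.12 and 0.38 on the log2 scale. The osmosensitive channel gene TMEM63B rose by 0.87 and the TMC family gene TMC7 by 1.04. TMC6, with 2 and 5 counts in Ctrl and 15 and 24 in PRMT3-KD, entered the test only through PRMT3-KD, and with at least 10 counts required in every library 10 genes of the list were higher. STIM1 and ORAI1, which carry store-operated calcium entry, stood at 0.17 and -0.24 on the log2 scale (adjusted p = 0.209 and 0.128, edgeR).

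**Figure D5:**
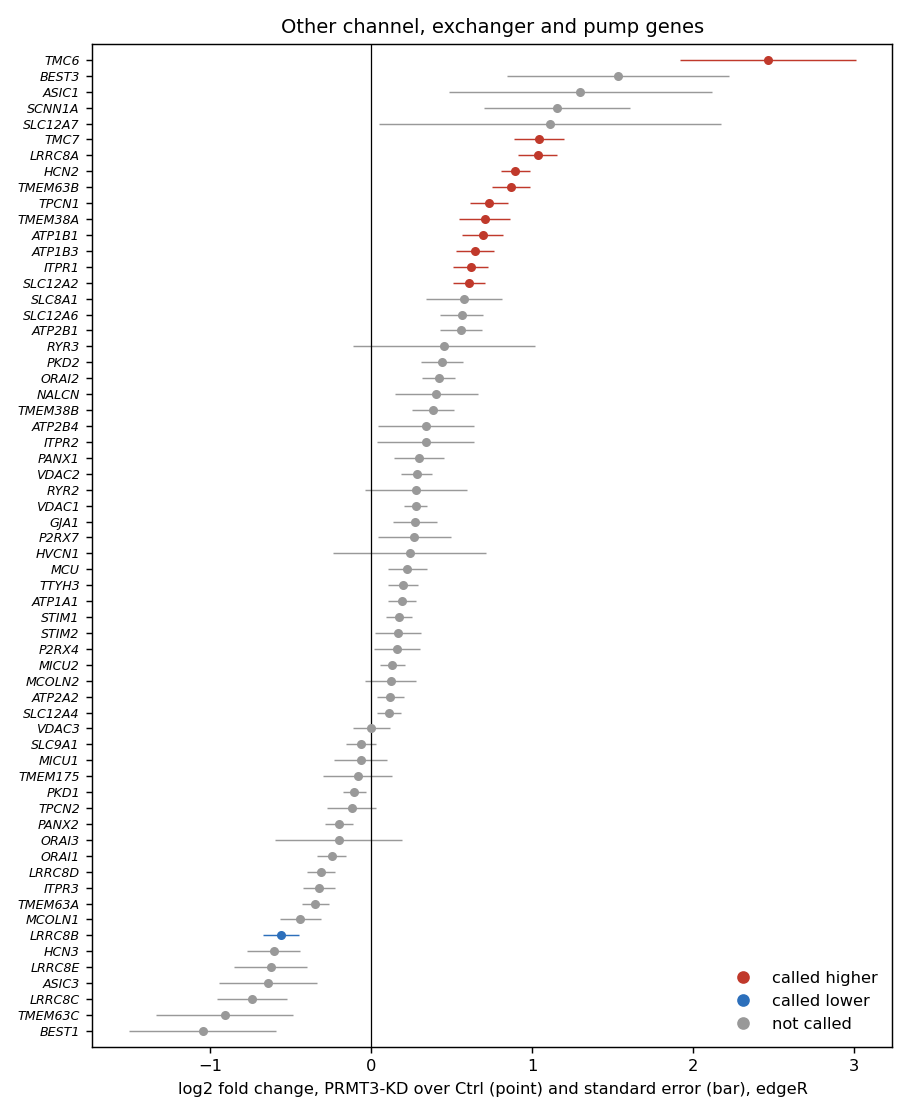
Log2 fold change (PRMT3-KD over Ctrl, edgeR) of the 62 tested genes of the list of other channels, exchangers and pumps, 1 point per gene with its standard error as a bar. The genes called higher, among them LRRC8A and HCN2, lie between 0.61 and 1.04, apart from TMC6, which had under 10 counts in Ctrl, and LRRC8B is the 1 gene called lower.

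The channel genes were also searched for the letters CAGCTCA in the 3′ UTR of the canonical GENCODE transcript on the mRNA strand, a sequence taken up because earlier work on these counts had linked its presence to lower values in PRMT3-KD. It was present in 23 of the 77 tested channel genes with an annotated 3′ UTR (29.9%, against 17.4% of all such genes), and the 3′ UTRs that held it were long, with a median of 4520 bases against 1262 in channel genes without it. The 5 channel genes that fell all lacked it. The 3 called genes that held it, KCND3, TRPC4 and TRPM7, all rose. In the transcriptome, 355 genes with the sequence were called lower and 115 higher, of 2214, and without it 794 were lower and 981 higher. These totals come from the counts that prompted the search and are not independent of it. The 3′ UTRs with it were longer over all genes too, with medians of 3216 and 1115 bases, and the part of this length in the counts was not tested. Over the 23 channel genes the median log2 fold change was -0.106, beside -0.111 for all genes with the sequence, and 12 were below and 11 above 0. Without the sequence the medians were 0.072 for the channel genes and 0.031 for all genes. The matches in KCND3 and TRPC4, as called genes, and 1 match in CLCN3, as the most counted gene with the sequence that was not called, are shown with 9 bases on either side, read from the GENCODE transcripts, with CAGCTCA in capitals and coordinates of GRCh37. A match is not evidence that anything binds there.
KCND3, chr1:112315681-112315705, minus strand: gaaaagatcCAGCTCActtctggtc
TRPC4, chr13:38209436-38209460, minus strand: aaggtaataCAGCTCAtgatggagc
TRPC4, chr13:38206290-38206314, minus strand: tgtttcagtCAGCTCAtgtatctcc
CLCN3, chr4:170643188-170643212, plus strand: tcaactcctCAGCTCAagcaatctg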

How the data were processed

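RNA-seq of U251 cells gave 2 Ctrl and 2 PRMT3-KD libraries, grouped by their titles. The authors deposited unnormalized counts per gene, made by TopHat alignment to hg19 and Cufflinks; versions, annotation, strand handling and filters are not given in the sources used here. Of 15576 entries, 1 duplicate was removed. In R 4.3.3, edgeR 4.0.16 was used with filterByExpr (minimum count 10, minimum total 15), TMM factors, glmQLFit and glmQLFTest, and Benjamini-Hochberg adjustment over 13172 genes. A gene was called at an adjusted p under 0.05. Standard errors were taken as the absolute log2 fold change divided by the square root of F. Exon lengths, overlaps and 3′ UTRs came from GENCODE 44 lifted to GRCh37, the build of hg19.

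The named genes were the called members, the 2 with most counts in each of 10 classes, and members with at least 20 counts whose PRMT3-KD libraries lay over 1.5-fold on opposite sides of Ctrl, of which there were none. Further members given with values, such as KCND1, KCNJ8, the KCNIP and KCNMB genes, CACNA1H, CACNB1, the CLCN genes, ANO1, TRPC1 and PIEZO2, were chosen after their values were seen. Some results, among them 1 called gene that is in the counts, are not reported here. Members and lists were chosen with earlier results of these data known. Alternatives were DESeq2 1.42.0, limma-voom 3.58.1 with group weights, other scalings, filters, fold thresholds, the replicate block and leaving out each library. The tests were also run on simulated counts with the same spread in both groups. That simulation lacks the wider spread of the PRMT3-KD libraries and so does not check the calls under it. The precision is limited by counts, with 1 count worth 0.0352 to 0.0394 CPM.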

Additional observations from a re-analysis of the deposited data

How the results depend on the processing

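The 5 rises and 5 falls among the channel genes rest on a spread shared by tight Ctrl and wide PRMT3-KD libraries. Without Ctrl replicate 1 or 2, where the lone library is assumed to vary like PRMT3-KD, edgeR called 0 genes in all and so 0 channel genes (4 higher and 4 lower at an unadjusted p under 0.05). The leave-one-out counts ranged from 0 to 20 higher, from 0 to 17 lower and from 0 to 50 for the other channel and ion handling genes, for which it was 12 in the full fit. The high counts came without PRMT3-KD replicate 1 or 2, where the spread is that of Ctrl, 8841 of 13408 and 8809 of 13423 genes were called in all and the 5 rises and 5 falls were all called. DESeq2 called 8 channel genes higher, beside 1362 of 12661 genes. When 1 count in any library was enough to be tested, 3 were called lower, no longer including KCNIP2, beside 1084 of 15575 genes. On library totals only, 6 of the other channel genes were called, beside 1725 of 13172 genes. The replicate number was used as a block although the correlation of the deviations of same-numbered libraries across genes was 0.0222, so that the numbers do not pair the libraries. With the block 4 channel genes were called higher and 3 lower, beside 764 higher and 892 lower of all 13172 genes. TRPC4, ANO6 and KCNIP2 (adjusted p = 0.054, 0.0547 and 0.0695, edgeR) were among those that lost the call, and SCN4B gained it. LRRC8B of the other channel genes lost the call too. KCND3, KCNK1, TRPM7, CACNG4, KCNMA1 and ANO8 were called under all 7 alternatives of test, scaling, filter and block. Of the 25 genes named by rule, the sign turned with a library left out in 5, none of them called: CLIC1 (-0.016 to 0.178), KCNE4 (-0.105 to 0.066), KCNJ14 (-0.481 to 0.195), KCNJ2 (-0.143 to 0.197) and KCNK6 (-0.927 to 0.008).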
